A study of Mus musculus with 2 samples.

Results

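Focal adhesion adaptors are the cytoplasmic proteins that tie integrins to actin and to signalling enzymes, and the genes of 10 of them were followed here: Tln1, Vcl, Ilk, Parva, Tns1, Ptk2, Pxn, Bcar1, Zyx and Lpp. Their members in the data are the peaks that the annotation of the deposited table assigns to these gene symbols, which were 101 of 63316 peaks, and the 10 genes were among 16934 genes with a peak. The rule for the peaks uses the symbols and no measured value, though the genes were picked with earlier results of these data known.

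The data are from ATAC-seq (assay for transposase-accessible chromatin), in which the Tn5 transposase cuts and tags open DNA, and the reads over a region report how open it is. There were 2 libraries, both from primary cardiac fibroblasts of mouse heart that had been given TGF-β (5 ng/ml, 24 h). One carried scrambled siRNA (SCR, labelled NC) and one an siRNA against Piezo2, a mechanically gated ion channel (siPiezo2, labelled SiPiezo2). No untreated library was analysed here, and age and the number of animals behind a culture are not given in the sources used here. The study's mouse strains had a C57BL/6J background, and which mice gave these cells is not stated in the methods. The deposited description of the series speaks of Tet3 deletion by Cre in place of an siRNA against Piezo2, the study's methods speak of minced tissue and a different kit from the labels, and the labels call the extracted molecule total RNA. The groups below are those of the labels.

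With 1 library per condition no difference has a replicate check, and no test of the conditions was made. Each value is the authors' normalized read density in a window of 2000 bp at the peak. Differences are log2((siPiezo2 + 1)/(SCR + 1)), and the peaks of a gene were summed for its value. The reads behind the windows, 4615335 in SCR and 2754046 in siPiezo2, were recovered whole from the table and give 95% exact binomial (Clopper-Pearson) intervals that cover counting error only. Among peaks called in both libraries the spread of the ratios was 2.04 times the counting variance, so these intervals are too narrow for a difference between cultures. The normalization left the median of all genes at -0.09 rather than 0, and that value stands beside the members' values below. An siRNA acts on messenger RNA, so accessibility does not check the knockdown. The 14 peaks assigned to Piezo2, none of them at a promoter, had summed densities of 334 in SCR and 242 in siPiezo2 (log2 ratio -0.46, interval -0.64 to -0.29).

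The cell type was checked by promoter peaks of marker genes. A promoter peak is one that the table annotates as a promoter at most 1 kb from a TSS (transcription start site). Peaks as near to a TSS but annotated as 5′ UTR, exon or intron, such as a Ptk2 peak 8 bp from one, count as outside promoters. Of 12 fibroblast markers 10 had one, Col1a1, Col3a1, Pdgfra and Tcf21 among them, while Lum and Thy1 had none. Those of other cells were fewer, at 1 of 10 cardiomyocyte, 1 of 8 endothelial, 1 of 8 leukocyte, 1 of 7 pericyte and smooth muscle, and 2 of 6 mesothelial and epithelial markers. Those with a promoter peak were Myl3, Tek, Cd14, Myh11, Msln and Upk3b, and Myh6, Pecam1, Ptprc and Rgs5 were among those with none. Summed over its peaks, the fibroblast list had 1471 in SCR and 1212 in siPiezo2 (-0.28), and the list of pericytes and smooth muscle 443 and 371 (-0.25). The other lists were between -0.01 and 0.06. Medians over the genes of a list differed from these sums, at -0.40 for fibroblast, -0.07 for pericyte and smooth muscle, -0.24 for leukocyte and 0.17 for mesothelial and epithelial markers. In bulk libraries, fewer cells of a type and less accessible chromatin per cell cannot be told apart, and the part of cell mixture in the values below was not tested.

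Integrins bind the matrix outside the cell and recruit talin, which vinculin reinforces by holding actin. The kinase FAK, paxillin and p130Cas relay signals from these sites, the ILK and parvin complex and the tensins add further links to actin, and zyxin and LPP gather on fibres under tension. Fibroblasts that turn into myofibroblasts in an injured heart build larger focal adhesions, through which they contract scar tissue.

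Promoter sequences from RefSeq (GRCm38.p6) were at hand for 7 of the 10 genes and not for Pxn, Ptk2 and Parva. The sequences of Vcl and Zyx are shown because both genes had a strong promoter peak with the higher normalized density in siPiezo2, and because of the motifs they hold. The Vcl sequence is the 250 bases before the TSS on the plus strand, chr14:20929148-20929397, with an SRF CArG box and a TEAD half-site in capitals. The Zyx sequence is 30 bases of the plus strand, chr6:42349696-42349725, with an AP-1 site in capitals.
Vcl: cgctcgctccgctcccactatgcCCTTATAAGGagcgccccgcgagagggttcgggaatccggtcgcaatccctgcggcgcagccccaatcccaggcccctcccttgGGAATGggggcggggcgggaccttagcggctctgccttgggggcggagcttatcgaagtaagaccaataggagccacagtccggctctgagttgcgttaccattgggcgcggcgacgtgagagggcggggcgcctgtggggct
Zyx: agtgcggacagTGAGTCAgttctccagcac

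The CArG box of Vcl lies 227 to 218 bases before the TSS and its TEAD half-site (GGAATG) 143 to 138 bases before it. The AP-1 site of Zyx (TGANTCA, here TGAGTCA) lies 121 to 115 bases before the RefSeq TSS. All motifs were searched on both strands of the 250 bases before each TSS. The CArG box was found in 1.47% of 32851 mouse promoters, the AP-1 site in 6.75% and the TEAD half-site in 12.6%. Among the 10 promoters of the 7 matched members, Vcl alone had the CArG box, Zyx alone the AP-1 site, and Vcl and Lpp the TEAD half-site. The Vcl peak, in the table's own assembly, reached from 496 bp before to 113 bp after the start of its transcript, which is the RefSeq TSS. The Zyx peak reached from 388 bp before to 320 bp after the start of its transcript, and the RefSeq TSS lies 48 bp inside that transcript. By distance from these starts, both sets of letters lie under a peak. A match describes the sequence and not the binding of a factor.

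Over the 10 genes together, summed densities were 4107 (SCR) and 3545 (siPiezo2), with a log2 ratio of -0.21 (interval -0.26 to -0.16). The sum was thus lower in the siPiezo2 library, but it was at -0.073 under median-of-ratios scaling, at -0.066 over peaks called in both libraries, and at -0.054 (interval -0.16 to 0.05) with each gene reduced to its strongest peak. The sum over all peaks of the table was at -0.088, and at 0.058 over all peaks called in both libraries. The median over the 10 genes was -0.22 (interval from order statistics -0.31 to 0.23), against -0.09 over all genes with a peak, and its interval includes both that value and 0. Other scalings moved both medians, by up to 0.14 for all genes where libraries were scaled to the same depth, and the difference between them (members minus all genes), which a constant factor can change only through the pseudocount, was -0.13 to -0.12. Recovered reads at the same total, which drop the slope of the normalization, were in that range. Of the 10, 7 were below 0, near the 62.6% of all genes. For 6 of these (Tln1, Parva, Tns1, Ptk2, Bcar1 and Lpp) the counting interval lay below 0, as it did for 15.2% of all genes, whose median was 120 reads in SCR against 704 for the members. Zyx alone had an interval above 0 (all genes 4.37%). Under median-of-ratios scaling only Tns1 had an interval below 0, and Ilk and Zyx had one above it, while recovered reads at the same total gave 5 intervals below 0 and 0 above. Against the all-gene median, the intervals of 4 genes lay below it (Parva, Tns1, Lpp and Bcar1) and those of Zyx and Ilk above it. With intervals widened to the spread of peaks called in both libraries, 4 lay below 0 (Parva, Tns1, Lpp and Bcar1) and 0 above, so that those of Tln1, Ptk2 and Zyx included 0. Of the widened intervals, only that of Tns1 lay below the all-gene median and only that of Zyx above it. For intervals under other scalings, set against the all-gene median, or widened, the share of all genes was not computed. Those counts therefore describe single genes and give no contrast between the members and the background. None of the 10 genes passed 1.5-fold as a sum. Over all genes, 6.21% were lower past that fold and 1.54% higher.

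**Figure D1:**
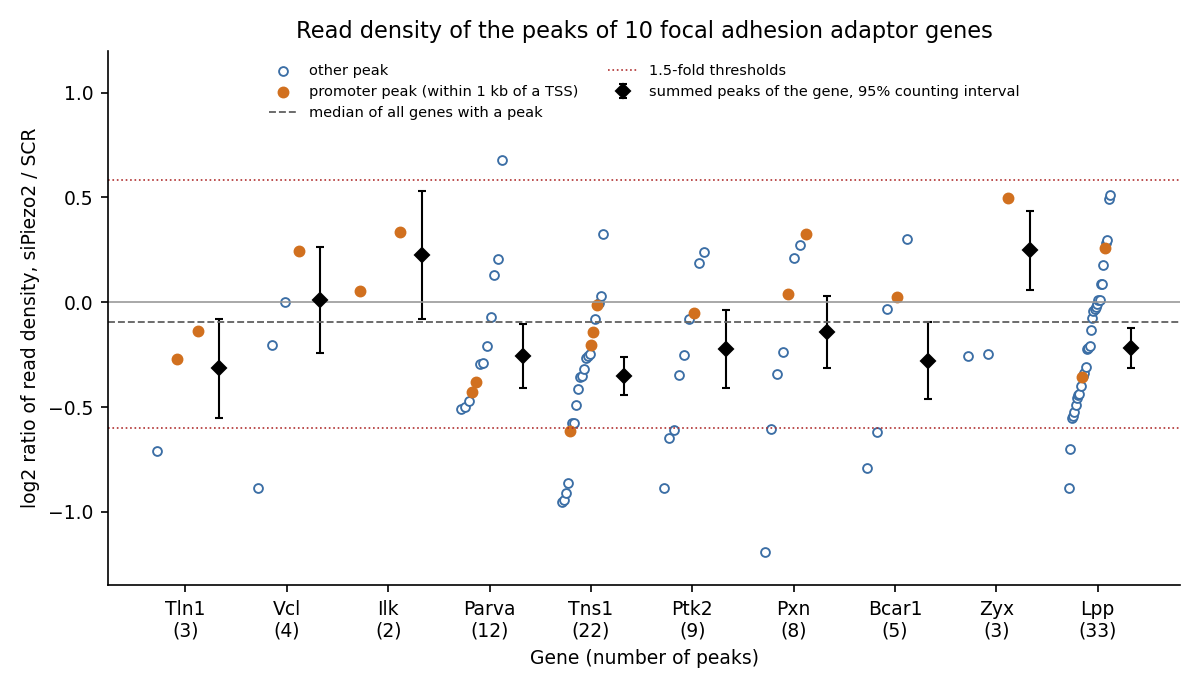
The vertical axis gives the log2 ratio of normalized read density in siPiezo2 over SCR and the horizontal axis the 10 genes with their numbers of peaks; each circle is a peak, filled for promoter peaks, and each diamond is the sum over the gene's peaks with its 95% counting interval. Most circles lie below 0, those of Ilk lie above it, and the diamonds run from -0.35 for Tns1 to 0.25 for Zyx.

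By single peaks, 73 of 101 were below 0, 72.3% against 63.7% of all peaks, and the median was -0.24 against -0.13. A peak was counted as past 1.5-fold when its density, with 1 added, was below 0.66 or above 1.5 of SCR. Of the members' peaks, 16 were lower, a share of 15.8% that is near the 13.5% of all peaks, and 1 was higher (0.99%, all peaks 3.21%). Under median-of-ratios scaling 9 were lower and 4 higher, with 8.27% and 6.20% of all peaks. The upper quartile was 0.01 for the members and 0.12 for all peaks, and the lower quartile -0.47 and -0.41. Tns1 held 5 of the 16 lower peaks, Ptk2 held 3, Pxn, Bcar1 and Lpp held 2 each, and Tln1 and Vcl 1 each. Ilk, Parva and Zyx had none. Of the 16, 14 had been called as peaks in SCR only, a class whose median is below 0 over all peaks too (-0.23).

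The values differed by the place of a peak in its gene. The 18 promoter peaks of the members had a median of -0.03, the same to 2 decimals as the -0.03 of all 9251 promoter peaks. Of these 18, 1 was lower past 1.5-fold (5.56%, all promoter peaks 5.86%) and 0 were higher (all promoter peaks 1.98%). The 74 intron peaks had a median of -0.26, against -0.17 for all 26569 intron peaks. Past 1.5-fold, 12 of them were lower (16.2%, all intron peaks 14.8%). Restricting both sets to peaks called in both libraries, the intron medians were -0.22 for 29 member peaks and -0.03 for 7215 peaks, and the promoter medians were 0.05 and 0.04. The median of the members was thus below that of other peaks at introns and level with it at promoters. Of the 74 intron peaks 31 belong to Lpp and 15 to Tns1. Without these genes the intron median was -0.27 over 28 peaks, but over the 13 of them called in both libraries it was -0.08. The gap at introns was much the same under scaling by a factor, with intron medians of -0.13 and -0.03 under median-of-ratios scaling. It was wider on recovered reads at the same total, which drop the slope of the normalization. There the intron medians were -0.22 and 0.01 and the promoter medians 0.02 and 0.05. Members' peaks were also stronger than most, with 52 of 101 at or above the 75th percentile of mean density, where their median was -0.26 against -0.06 for all peaks of that strength.

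**Figure D2:**
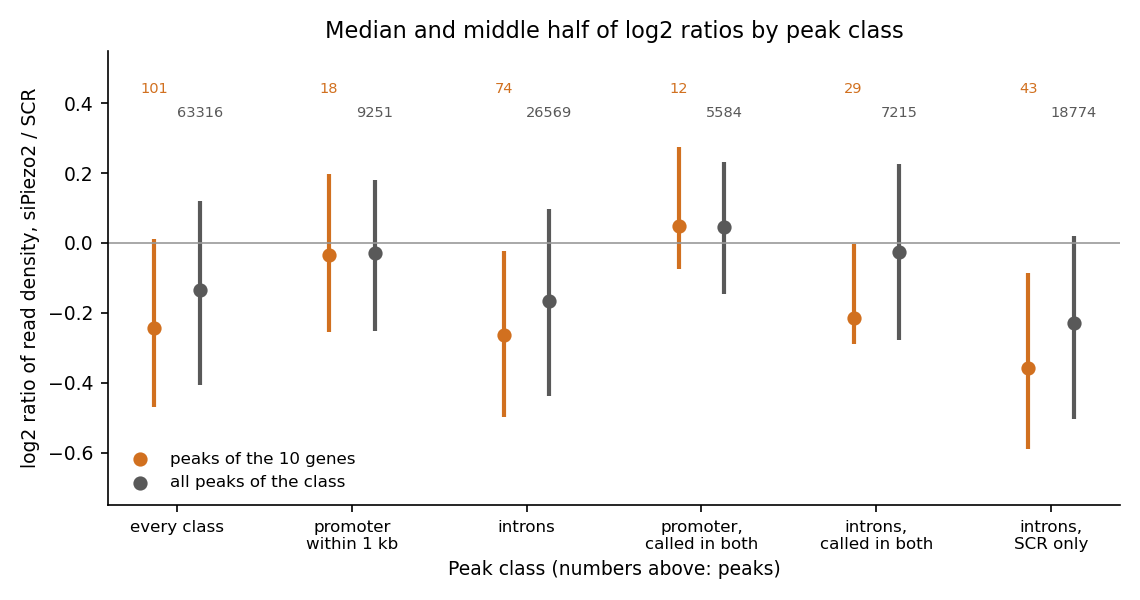
The vertical axis gives the log2 ratio of read density, siPiezo2 over SCR, and the horizontal axis the class of peak; points are medians and bars reach from the lower to the upper quartile, in orange for the 10 genes and in grey for all peaks, with the numbers of peaks above. The medians of promoters coincide near 0, while those of introns are lower for the 10 genes (-0.26 against -0.17, and -0.22 against -0.03 where both libraries have the peak).

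Talin 1, encoded by Tln1 (ENSMUSG00000028465, chromosome 4, 43531519 to 43562422 in the table, whose coordinates are those of GRCm39), binds the tails of integrin beta chains and switches integrins on. Its 3 peaks summed to 181 in SCR and 145 in siPiezo2 (-0.31, interval -0.55 to -0.08). The strongest, at the promoter, had 73.1 in SCR and 66.3 in siPiezo2 (-0.14). A further promoter peak, 3.49 kb inside the gene, had 63.2 and 52.2 (-0.27). All 3 were lower in siPiezo2, and 1 of them was past 1.5-fold, a peak just behind the end of the gene with 44.5 in SCR and 26.8 in siPiezo2 (-0.71, interval -1.26 to -0.18). That peak is assigned to Tln1 by the table, but the nearest TSS, 6751 bp away, is that of Tpm2, a tropomyosin gene.

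Vinculin, encoded by Vcl (ENSMUSG00000021823, chromosome 14, 20979466 to 21083744), binds talin once force has unfolded it. Its 4 peaks summed to 138 in SCR and 139 in siPiezo2 (0.01, interval -0.24 to 0.26). The gene as a whole was thus level, with its peaks on either side of 0. The promoter peak that covers the CArG box had 68.5 in SCR and 81.4 in siPiezo2 (0.25, interval -0.10 to 0.58). The weakest peak, in intron 1, had 15.5 and 7.92 (-0.89, interval -1.93 to 0.07) and rests on 34 and 13 reads. The other intron peaks were at 0.00 and -0.20.

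Integrin-linked kinase, encoded by Ilk (ENSMUSG00000030890, chromosome 7, 105385799 to 105392132), is a pseudokinase that bridges integrins and parvin. Both of its peaks are promoter peaks and both were above 0. The one at the 5′ end had 49.2 in SCR and 62.4 in siPiezo2 (0.34, interval -0.06 to 0.73), and the other, at an internal TSS, had 36.2 and 37.7 (0.05). Their sum was 85.4 and 100.1 (0.23, interval -0.08 to 0.53). Ilk was the only member without a peak below 0.

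Alpha-parvin, encoded by Parva (ENSMUSG00000030770, chromosome 7, 112026712 to 112188836), is the actin-binding partner of ILK. Its value was opposite in sign to that of Ilk. The 12 peaks of Parva summed to 419 in SCR and 351 in siPiezo2 (-0.26, interval -0.41 to -0.11). The promoter peaks had 57.4 in SCR and 43.8 in siPiezo2 (-0.38) and 52.8 and 39.0 (-0.43), and the intron peak just behind them had 46.8 and 38.1 (-0.29). These 3 peaks lie within 1 kb and share parts of their windows, so they are not separate measurements. The strongest peak, in intron 2, had 69.2 and 49.7 (-0.47, interval -0.88 to -0.07). Parva also had the only member peak that was higher past 1.5-fold, in intron 2 at 64.4 kb from the 5′ end, with 14.0 in SCR and 23.0 in siPiezo2 (0.68, interval -0.04 to 1.40). It was called in siPiezo2 only and rests on 32 and 38 reads.

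Tensin 1, encoded by Tns1 (ENSMUSG00000055322, chromosome 1, 73949390 to 74163606), joins integrin tails to actin in the long adhesions of spread fibroblasts. It had the lowest value of the 10 genes. Its 22 peaks summed to 1194 in SCR and 936 in siPiezo2 (-0.35, interval -0.44 to -0.26), and 20 of the 22 were below 0. By number of peaks it ranked 58th of 16934 genes. The table's Tns1 peak nearest to the 5′ end lies 31.9 kb inside the gene, and the 4 promoter peaks lie at internal TSSs.

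Of these promoter peaks, the one 125.8 kb into the gene was the only member promoter past 1.5-fold. It had 107 in SCR and 69.6 in siPiezo2 (-0.62, interval -0.96 to -0.29). The pair at 160.6 and 161.2 kb, which share a window, had 106 and 91.6 (-0.20) and 106 and 95.9 (-0.14). The promoter peak at 136.7 kb, called in siPiezo2 only, had 32.6 and 32.3 (-0.01). On recovered reads at the same total the pair was at -0.37 (interval -0.68 to -0.07) and -0.31 (interval -0.61 to -0.01), and both intervals exclude 0. The peak at 125.8 kb was then at -0.75 (interval -1.09 to -0.42) and that at 136.7 kb at 0.09. The values of the internal promoters of Tns1 thus differed, and that difference was not tested.

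The other Tns1 peaks past 1.5-fold were all lower and all called in SCR only. In intron 1 the densities were 44.0 in SCR and 22.3 in siPiezo2 (-0.95, interval -1.55 to -0.39), the lowest ratio of the gene. In intron 19 they were 56.9 and 29.1 (-0.94) and in intron 24 they were 42.4 and 22.9 (-0.86). A peak behind the gene had 44.0 and 22.9 (-0.91). The lower peaks are thus spread over the whole gene. Over its 15 intron peaks, 14 were below 0, with a median of -0.36 (all intron peaks 66.2% below 0, median -0.17).

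Focal adhesion kinase, encoded by Ptk2 (ENSMUSG00000022607, chromosome 15, 73076951 to 73295129), is activated by integrin clustering and phosphorylates paxillin and p130Cas. Its 9 peaks summed to 269 in SCR and 231 in siPiezo2 (-0.22, interval -0.41 to -0.04). At its 5′ end the peak had 29.8 and 35.4 (0.24, interval -0.29 to 0.76). The promoter peak, at an internal TSS 180 kb into the gene, had 38.5 and 37.1 (-0.05), and the strongest peak, in intron 23, had 40.0 and 37.8 (-0.08). The interval at the start of the gene included 0, as did those of its strongest peaks, and 3 other intron peaks were past 1.5-fold. These had 29.6 and 15.6 in intron 27 (-0.89, interval -1.61 to -0.21), 15.8 and 9.71 in intron 4 (-0.65, interval -1.60 to 0.24) and 29.0 and 18.7 in intron 3 (-0.61, interval -1.28 to 0.03). The intervals of the latter pair include 0 too.

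Paxillin, encoded by Pxn (ENSMUSG00000029528, chromosome 5, 115644735 to 115694046), is the scaffold on which FAK and its partners meet. Its 8 peaks summed to 314 in SCR and 284 in siPiezo2 (-0.14, interval -0.31 to 0.03), and they split evenly, 4 below and 4 above 0. The peak at the 5′ end was weak, with 20.9 and 21.5 (0.04). The promoter peak 37.0 kb into the gene had 41.7 and 52.6 (0.33, interval -0.11 to 0.76). Between these lies intron 1, where 4 of 5 peaks were below 0. One of them had the lowest ratio of all 101 peaks, with 40.2 in SCR and 17.1 in siPiezo2 (-1.19, interval -1.86 to -0.56, 97 and 27 reads), and its neighbour, whose window overlaps, had 43.2 and 28.1 (-0.60). The strongest Pxn peak, also in intron 1, had 55.7 and 47.2 (-0.24).

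p130Cas, encoded by Bcar1 (ENSMUSG00000031955, chromosome 8, 112437106 to 112470441), is a scaffold that is stretched and phosphorylated under load. Its 5 peaks summed to 292 in SCR and 241 in siPiezo2 (-0.28, interval -0.46 to -0.10). This sum rested largely on a single peak. In intron 2 the gene's strongest peak had 103 in SCR and 58.9 in siPiezo2 (-0.79, interval -1.15 to -0.44), and without it the gene was at -0.06 (interval -0.28 to 0.16). The promoter peak had 49.99 and 50.96 (0.03), and the peak upstream of it, past 1.5-fold, had 46.9 and 30.2 (-0.62, interval -1.14 to -0.12). Adding 3 peaks whose nearest TSS is that of Bcar1, but which the table assigns to Cfdp1 or to no gene, would bring Bcar1 to -0.06 as well, as described in the closing observations.

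Zyxin, encoded by Zyx (ENSMUSG00000029860, chromosome 6, 42326714 to 42337147), moves from focal adhesions to strained actin fibres. Its promoter peak was the strongest of all 101 member peaks, above 99.9% of the peaks in the table. It had 136 in SCR and 192 in siPiezo2 (0.50, interval 0.27 to 0.73), the only member peak with an interval above 0. Its recovered reads were 386 and 268, and at the same total they give 0.22 (interval -0.01 to 0.45), which includes 0. The peaks in intron 5 and in the 3′ UTR were lower, with 45.7 and 38.1 (-0.26) and 42.1 and 35.3 (-0.25). The gene as a sum had 223 and 265 (0.25, interval 0.06 to 0.43), and without the promoter peak it was at -0.26 (interval -0.59 to 0.08). With 2 further peaks whose nearest TSS is that of Zyx, it was at 0.11 (interval -0.07 to 0.28). The size of its value also depended on the normalization, whose slope with density raises strong peaks of siPiezo2 most. On recovered reads at the same total, Zyx was at 0.08 (interval -0.11 to 0.27), against an all-gene median of 0.03.

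LPP, the lipoma-preferred partner encoded by Lpp (ENSMUSG00000033306, chromosome 16, 24212257 to 24811328), is a zyxin relative found at adhesions and on stress fibres of smooth muscle and fibroblasts. Over its length of 599 kb it had 33 peaks, which ranked it 9th of all genes. They summed to 990 in SCR and 852 in siPiezo2 (-0.22, interval -0.31 to -0.12), with 23 below 0 and 10 above. The promoter peak at the 5′ end had 40.4 and 48.5 (0.26, interval -0.19 to 0.70), and the one 54.6 kb into the gene had 33.3 and 25.8 (-0.35). Both relatives, Zyx and Lpp, thus had a value above 0 at the 5′ promoter peak and one below 0 over the peaks outside promoters. The same signs were found for Vcl (0.25 and -0.26) and Pxn (0.04 and -0.26), so they are not particular to the relatives. For Zyx the value outside promoters rests on 2 peaks, whose nearest TSS is that of Gm44284, at 4239 and 8637 bp.

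The intron peaks of Lpp differed along the gene. In introns 1 and 3, 11 of 12 peaks were below 0 (91.7%, all intron peaks 66.2%), with a median of -0.38. The strongest of them had 73.4 in SCR and 53.2 in siPiezo2 (-0.46, interval -0.85 to -0.07), and the one past 1.5-fold had 29.6 and 15.6 (-0.89, interval -1.61 to -0.21). In introns 4 to 10, 11 of 19 were below 0 (57.9%, a smaller share than that of all intron peaks), with a median of -0.02. The one past 1.5-fold there had 15.4 and 9.10 in intron 10 (-0.70, interval -1.68 to 0.22), with 34 and 15 reads. Median density in SCR was 30.4 in the former introns and 17.6 in the latter. In the former 8 of the 12 peaks, and in the latter 13 of the 19, were called in SCR only. Of all intron peaks called so, 73.2% were below 0. Some windows in intron 3 overlap. Introns up to 6 are numbered by a transcript with 6 introns, and those from 7 by a transcript with 12. This division of the gene was made after the values were seen, and the difference between its ends was not tested.

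**Figure D3:**
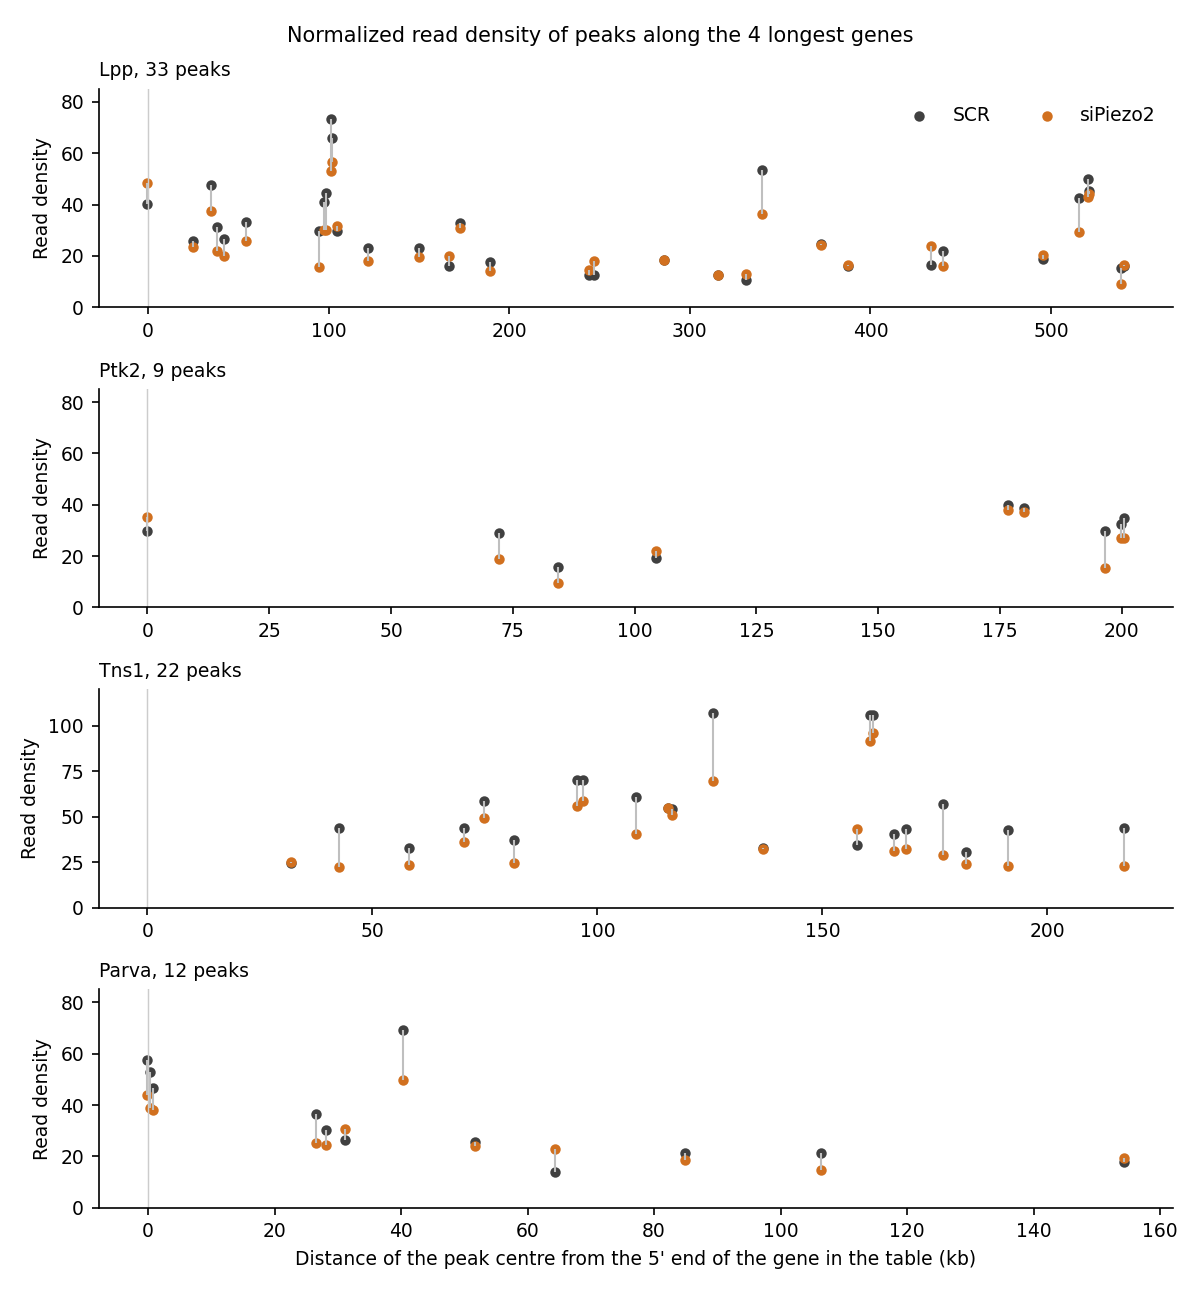
Each panel is one of the 4 longest genes; the horizontal axis is the distance of a peak from the gene's 5′ end in kb, the vertical axis the normalized read density, and a line joins SCR (dark) and siPiezo2 (orange) at each peak. SCR is the higher point at 20 of 22 Tns1 peaks along the whole gene, and at 11 of 12 peaks in introns 1 and 3 of Lpp, while the peaks at the 5′ ends of Lpp and Ptk2 have siPiezo2 on top.

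Set side by side, the promoter peaks did not follow one direction. At the 5′ end, those of Zyx (0.50), Ilk (0.34), Lpp (0.26), Vcl (0.25) and Pxn (0.04) were above 0, and those of Parva (-0.38 and -0.43) and Tln1 (-0.14) below it. Of these only the Zyx interval excluded 0. On recovered reads at the same total none did, and the order changed, with Ilk at 0.32, Lpp at 0.30, Pxn at 0.25, Zyx at 0.22 and Vcl at 0.15. By contrast, all 10 genes except Ilk, which has promoter peaks only, had a value below 0 over their peaks outside promoters, from -0.71 for Tln1 (1 peak) to -0.20 for Parva (10 peaks). Over all 13058 genes with a peak outside promoters, 67.0% were below 0 and the median was -0.13, so a value below 0 is common, and Parva and Lpp (-0.24) were nearer to that median than Tns1 (-0.38) or Bcar1 (-0.35). These 9 values were below 0 under each scaling tried, and highest at -0.07 under median-of-ratios scaling. However, 49 of the 83 member peaks outside promoters were called in SCR only (37029 of all 54065 such peaks), which no scaling changes. For Tln1 and Zyx this holds for each such peak. The Ptk2 peak at its 5′ end (0.24), annotated as 5′ UTR, counts as outside promoters here.

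**Figure D4:**
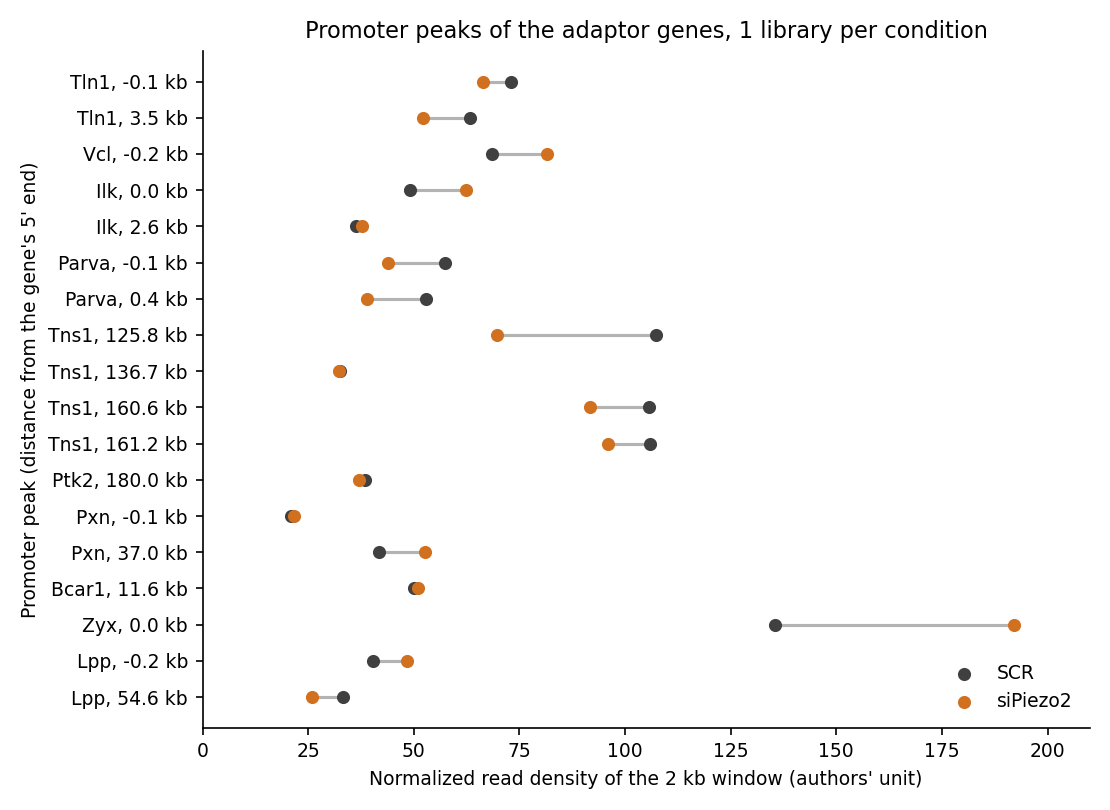
The horizontal axis gives the normalized read density of the 18 promoter peaks, and the rows name the gene and the distance of the peak from its 5′ end in kb; dark points are SCR and orange points siPiezo2. The Zyx promoter goes from 136 to 192 and the Tns1 promoter at 125.8 kb from 107 to 69.6, and on these densities the counting intervals of the others include 0. On recovered reads at the same total, the intervals of the Tns1 peaks at 160.6 and 161.2 kb exclude 0 and that of Zyx includes it.

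Other genes of focal adhesions were drawn from lists by role. Of 79 such genes 75 had a peak, and 56 of these were below 0 (74.7%, all genes 62.6%). Their median was -0.12, with -0.09 for all genes and -0.22 for the adaptors. Under median-of-ratios scaling it was 0.01, with the all-gene median at 0.04. Lower past 1.5-fold were 3 of the 75 (Kank4, Tgfb1i1 and Fhl2), with the background at 6.21% of all genes, and 0 were higher, with the background at 1.54%. LIM-domain adhesion proteins, the class of Zyx and Lpp, had the lowest median of the lists (-0.36 over 11 genes, 8 below 0). Integrin activators and partners were at -0.12 (13 genes), actin-binding proteins at -0.15 (16 genes), and kinases and scaffolds at -0.09 (35 genes).

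The lowest values among the more accessible of these genes were for Tgfb1i1 and Fhl2. Tgfb1i1, which encodes the paxillin relative Hic-5, had 122 in SCR and 72.4 in siPiezo2 (-0.74, interval -1.07 to -0.42). Fhl2, a LIM-only adaptor, had 519 and 341 (-0.60, interval -0.75 to -0.46). Next came Pak2, a kinase downstream of Rac and Cdc42 (-0.55), and Actn4, an alpha-actinin that cross-links actin (-0.54). The highest were Kank3 (0.28) and Kank1 (0.25, interval 0.07 to 0.44), talin-binding proteins at the rim of adhesions, the SH2 and SH3 adaptor Nck1 (0.20) and the zyxin relative Ajuba (0.19). Kank4, named because so few genes passed the fold, had 26.9 and 14.9 at 1 peak (-0.81).

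**Figure D5:**
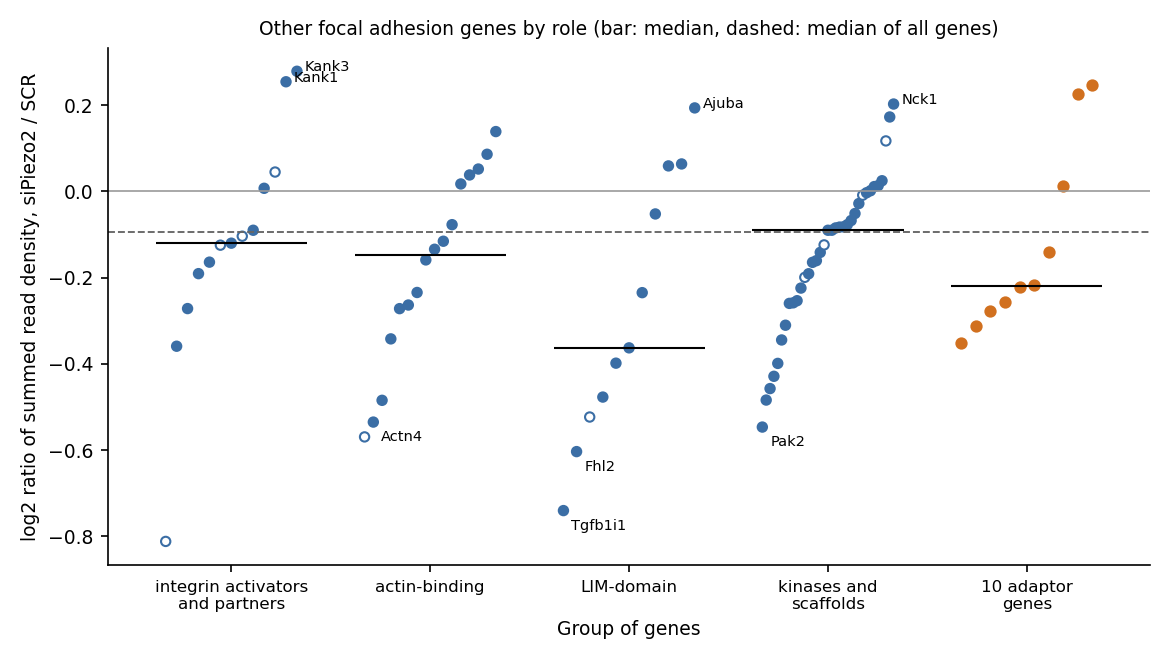
The vertical axis gives the log2 ratio of summed read density, siPiezo2 over SCR, and the horizontal axis the group of genes; each point is a gene, filled blue for the more accessible ones, orange for the 10 adaptors, with a bar at each median and a dashed line at the all-gene median of -0.09. LIM-domain genes have the lowest median (-0.36), and each group has genes on either side of 0.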

How the data were processed

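ATAC-seq libraries of TGF-β-treated murine cardiac fibroblasts (SCR and siPiezo2, 1 per condition, grouped by their titles) were analysed from 1 deposited table of peaks. According to the study's methods, reads were aligned with bwa (BWA 0.7.12 in the submitters' processing notes), duplicates were removed with Picard and peaks were called with MACS2 (q of 0.05). The signal columns, deposited by the authors, are read densities normalized by a line fitted to log2 ratios against mean log2 density, a step that no source names. The deposited log2 columns (M, A and the fold change) and the authors' p-value columns describe their own comparison of the libraries. M and A served only to recover reads, and the fold changes and p-values were not used. The processing notes name mm10, but only 19.5% of 14922 genes overlapped their GRCm38 position and 5 peaks lie on scaffold MU069435.1 of GRCm39, so table coordinates are taken as GRCm39. Peak sequences were therefore not read.

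Whole reads per window of 2000 bp came back for 100% of peaks within 0.05 of a whole number, after a search for the slope and intercept of the fit. The median peak had 58 reads in SCR and 36 in siPiezo2, which limits single peaks. The recovery and intervals were tried on simulated reads with counting error only. That trial cannot show how the intervals hold under the wider spread of the real ratios. A pseudocount of 1 was added, and 1.5-fold means below 0.66 or above 1.5. Motifs were searched in RefSeq promoters. Alternatives were a pseudocount of 0.1, other scalings, a 2-fold threshold, and subsets of peaks. The members, gene lists, motifs and tests were chosen with earlier results of these data known. Peaks named were each member's strongest, its promoter peaks and those past 1.5-fold, and other focal adhesion genes named were the 4 lowest and 4 highest among the more accessible ones (summed density of both libraries at or above the median of all genes with a peak). Software was matplotlib 3.10.9, scipy 1.17.1, pandas 2.3.3 and numpy 2.4.6 under Python 3.11.15.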

Additional observations from a re-analysis of the deposited data

How the results depend on the processing

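Absolute values depended on the scaling. Under median-of-ratios scaling, which moved the all-gene median to 0.04, 9 member peaks were lower and 4 higher past 1.5-fold, the peak median was -0.11 and the summed members were at -0.073. The median of the other focal adhesion genes turned to 0.012, with 36 below 0. With the same total density, 11 peaks were lower and 3 higher (9.97% and 4.90% of all peaks). The sum was at -0.12 and the other focal adhesion genes at -0.038. With recovered reads at the same total, 11 peaks were lower and 4 higher (7.67% and 8.23% of all peaks). The other focal adhesion genes were then at -0.0033 (all genes 0.03). Reads without scaling, which keep the difference in depth, gave 72 lower and 0 higher peaks (60.9% of all peaks lower), a peak median of -0.94, a gene median of -0.84 (all genes -0.71), a sum of -0.92, and Zyx at -0.66. A 2-fold threshold left 1 lower and 0 higher peaks, and the share of all peaks at that threshold was not computed. Promoter peaks alone gave a peak median of -0.034 and a sum of -0.015, with Lpp at 0.012 and Bcar1 at 0.027, and the strongest peak of each gene a sum of -0.054. Peaks called in both libraries gave 2 lower and 0 higher peaks (5.36% and 4.41% of all such peaks) and a peak median of -0.062 (all such peaks 0.0025). Their sum was at -0.066 (all such peaks 0.058) and Bcar1 at 0.088. Without its strongest peak Zyx was at -0.26. Chosen after seeing the data, leaving out Tns1 brought the sum to -0.16, and leaving out Lpp and Tns1 to -0.13. In the latter case 9 of 46 peaks were lower past 1.5-fold (19.6%, all peaks 13.5%). The pseudocount, separate windows and the filter on weak peaks left all summary values within their intervals. Except where fewer peaks or another scaling show the cause, it was not tested.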

Other observations

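Besides the 101 peaks, 13 peaks had a member's TSS as their nearest but were assigned to another gene or to none. Upstream of Bcar1, intergenic peaks a few kb from the nearest Bcar1 TSS had 59.1 in SCR and 73.3 in siPiezo2 (0.31, interval -0.06 to 0.67) and 56.2 and 62.8 (0.16). A peak in an intron of Cfdp1 had 24.7 and 36.4 (0.54, interval -0.01 to 1.08). With these 3, Bcar1 was at -0.06 (interval -0.21 to 0.08).

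Of 6 peaks near Vcl, 5 lie upstream of it in intergenic DNA, and 4 of these 5 were below 0. The lowest had 37.4 in SCR and 22.8 in siPiezo2 (-0.69, interval -1.29 to -0.12). The 6th, in the 3′ UTR of the neighbouring gene Ap3m1, had 35.3 and 54.2 (0.60, interval 0.16 to 1.05), the opposite direction. Upstream of Zyx, in intron 1 of Gm44284, 1 peak had 30.2 and 13.7 (-1.08, interval -1.85 to -0.38), while the Zyx promoter peak had 136 and 192. With both peaks in that intron, Zyx was at 0.11 (interval -0.07 to 0.28), and its interval included 0. Beyond the 3′ end of Tns1, intergenic peaks had 30.3 and 16.8 (-0.81, interval -1.51 to -0.16) and 33.1 and 22.6 (-0.53, interval -1.14 to 0.06). Near Tns1 and Zyx these peaks were thus lower, like most of the Tns1 peaks and unlike the Zyx promoter. For each of these genes, the interval of the peak with the smaller difference included 0.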
